A study of Mus musculus with 8 samples.

Results

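The 7 genes described here encode 5 subunits of the GABA-A receptor (Gabra2, Gabra3, Gabra5, Gabrb2 and Gabrd) and 2 chloride cotransporters (Slc12a2 and Slc12a5). They were chosen by symbol, and each matched 1 of the 34299 genes in the deposited count table. The libraries were bulk RNA-seq of polyadenylated RNA from mouse brain. Fetal brains of gestation day 15 gave 3 libraries of wild-type (WT) mice and 3 of Cav1 knockouts (KO), described as biological replicates, and KO brains of week 70 gave 2. Cav1 encodes caveolin 1, the coat protein of caveolae, the small pits of the plasma membrane. All groups were labelled as brain, both KO groups carried the same labelled genotype, and the labels name no treatment. At week 70 Gabra6, the cerebellar granule cell subunit, had 3 and 11 counts. Ttr, a choroid plexus marker, had 910 and 32809 counts in the 2 week 70 libraries. Whether each sample held the whole brain or the same brain regions was not tested. Strain, allele, sex and litter are not given in the sources used here. No WT brain at week 70 was analysed here, so age was compared within the knockout, and in week 70 KO against day 15 WT age and genotype cannot be told apart.

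The GABA-A receptor is a chloride channel of 5 subunits that opens when it binds GABA. The alpha subunit sets much of its kinetics and location, a beta subunit helps to form the GABA site, and the delta subunit, encoded by Gabrd, belongs to receptors outside synapses that respond to ambient GABA. Gabra2, Gabra3 and Gabra5 are known as the alpha subunits of the immature forebrain. Whether opening the channel excites or inhibits a neuron depends on its chloride. Slc12a2 (NKCC1) brings chloride in, and Slc12a5 (KCC2), which is restricted to neurons, pumps it out. A rise of the exporter against the importer is the textbook chloride switch of maturing neurons.

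Where these genes lie matters for what they share. On GRCm38 as annotated by GENCODE M21, Gabra2 lies at chr5:70957597-71095849 in a cluster with Gabrg1, Gabra4 and Gabrb1. Gabra5 lies at chr7:57407672-57510059 beside Gabrg3, and Gabrb2 at chr11:42419757-42629028 beside Gabra6. Gabra3 lies at chrX:72432681-72656848 between Gabre and Gabrq. Gabrd lies alone at chr4:155384980-155398112 and Slc12a5 at chr2:164960802-164999731. Counts covered whole genes, exons being the annotated unit. For Gabra5, 148 bases of exon overlapped a gene of the opposite strand, and 3.59% of its 50-base stretches also occurred in that gene. The share was 0.548% for Gabra2, 0.205% for Gabra3 and 0 for the other 4.

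Promoter sequence is shown for 3 of the genes because they gave the 3 kinds of result below. Gabra5 was the one whose genotype difference passed the test under each alternative, Slc12a5 the one whose difference turned with the correction for GC content, and Gabra2 the one that did not pass the test with age. The windows hold the 250 bases before an annotated RefSeq start on GRCm38.p6, read 5′ to 3′ on the gene's strand. They are chr7:57510060-57510309 (minus strand) for Gabra5, chr2:164967738-164967987 (plus strand, the downstream one of 2 annotated starts) for Slc12a5 and chr5:71095850-71096099 (minus strand) for Gabra2. Capitals mark E-boxes (CANNTG, the same on both strands), the motif bound by basic helix-loop-helix factors.
Gabra5: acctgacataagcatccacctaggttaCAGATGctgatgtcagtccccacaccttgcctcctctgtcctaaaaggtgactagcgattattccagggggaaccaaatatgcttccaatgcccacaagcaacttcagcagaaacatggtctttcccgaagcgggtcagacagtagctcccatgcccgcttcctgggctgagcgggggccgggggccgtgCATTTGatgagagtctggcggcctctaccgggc
Slc12a5: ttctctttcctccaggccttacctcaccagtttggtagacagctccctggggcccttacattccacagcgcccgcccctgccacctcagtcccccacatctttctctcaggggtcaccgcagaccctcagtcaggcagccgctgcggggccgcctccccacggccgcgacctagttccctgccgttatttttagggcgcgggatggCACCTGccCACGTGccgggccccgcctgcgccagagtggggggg
Gabra2: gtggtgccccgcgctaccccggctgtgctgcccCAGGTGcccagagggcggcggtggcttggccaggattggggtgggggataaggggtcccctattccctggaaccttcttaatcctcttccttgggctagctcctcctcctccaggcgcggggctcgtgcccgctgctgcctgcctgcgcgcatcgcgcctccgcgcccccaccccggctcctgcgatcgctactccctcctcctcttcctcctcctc
The windows of Slc12a5 and Gabra5 each held 2 E-boxes, and that of Gabra2 held 1. In Slc12a5 they began 44 and 36 bases before the start, in Gabra5 223 and 33 bases, and in Gabra2 217 bases. An E-box occurred in 66.2% of 32851 promoter windows of the same length, so its presence marks nothing particular. GC content was 70% in the Gabra2 window, 67.2% in that of Slc12a5 and 56.4% in that of Gabra5, against a median of 52.4% over all windows. None of these 3 windows held TTCAGCACC or GGACAGCGC, the 2 conserved parts of the RE1 element, on either strand. Those parts occurred in 0.301% and 0.304% of all windows.

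Total counts ranged from 14110031 to 20833397 per library, and each KO day 15 library was shallower than each WT one. The targeted gene, Cav1, had 218 to 367 counts in the WT libraries, 0 to 3 in the KO fetuses and 1 to 5 at week 70. The labelled tissue was checked against 10 neuron markers, whose summed level was 4056 to 4593 CPM (counts scaled to library size) in WT fetuses, 3110 to 3210 in KO fetuses and 10620 to 10800 at week 70. Levels below are CPM after TMM scaling over the 8 libraries. Across 19050 genes, the KO minus WT difference at day 15 fell with transcript GC content (Spearman's rho -0.475) and with transcript length (rho -0.388). The difference of week 70 from the KO fetuses rose with both, at rho 0.29 for GC content and 0.202 for length (19896 genes). For week 70 KO against day 15 WT rho was 0.108 and 0.0531 (19378 genes). These values are a description across genes, which are not independent replicates. Values from a corrected fit, with each library's trend on both properties taken out, are therefore given as well. Fewer cells of a type and less RNA per cell cannot be told apart in bulk brain libraries.

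At day 15 the KO fetal brain had more transcript of 3 alpha subunits and 1 beta subunit, and less of both chloride cotransporters, than WT. By edgeR's quasi-likelihood test with Benjamini-Hochberg adjustment over 19147 genes, 4 of the 7 genes were higher, 2 were lower and 1 was not called. This must be read against a background in which 62.6% of all genes tested were called, 30.1% higher and 32.5% lower. The CPM of 6 of the 7 did not overlap between genotypes, 4 of them higher in KO, against 68.3% of all genes without overlap and 32.1% without overlap and higher. The median log2 difference was 0.23 over the 7 genes and 0.03 over all genes. With the correction for length and GC content, 1 of the 7 was called (Gabra5, higher) and 6 were not, while 50.4% of all genes were called, 25.8% higher and 24.5% lower. Markers of other cell types also moved in this comparison. Of 10 neuron markers 7 were lower and 2 higher, and of 8 progenitor markers 7 were lower and 1 higher. All 6 endothelial markers were lower. The median log2 fold changes were -0.54, -0.92 and -1.48. With the correction 4 neuron, 5 progenitor and 6 endothelial markers were lower, and 1 neuron and 1 progenitor marker were higher. The medians were then -0.07, -0.84 and -1.06. The summed level of 6 fibroblast and meningeal markers was 62.4 to 131.3 CPM in KO fetuses and 311.3 to 4436 CPM in WT, where replicate 1 stood apart with Col1a1 at 2334 CPM against 70.3 and 131.9 CPM in the other two. Their part in the differences of the 7 genes was not tested. Without WT replicate 1, 5 of the 6 calls held and that of Gabrb2 did not.

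Among the alpha subunits, Gabra5, which is known for receptors outside synapses in hippocampal neurons, differed most. It was at 15.7, 16.8 and 20.2 CPM in WT replicates 1 to 3 and at 28.6, 28.3 and 30.6 CPM in the KO fetuses. All KO libraries lay above all WT ones. Its log2 change was 0.77 (SE 0.106, adjusted p 9.97e-05), or 1.71-fold, and 0.67 (adjusted p 2.95e-04) with the correction. Leaving out each library in turn moved it between 0.68 and 0.87.

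Gabra2, a synaptic alpha subunit of the forebrain, was at 49.6, 43.0 and 50.1 CPM in WT and at 61.2, 62.4 and 69.8 CPM in KO fetuses. The groups did not overlap, and its log2 change was 0.48 (SE 0.0783, adjusted p 3.44e-04). The corrected value was 0.14 and did not pass the test (adjusted p 0.130). Gabra3, an alpha subunit abundant before birth, was at 46.97, 50.01 and 59.5 CPM in WT and at 69.8, 65.5 and 65.9 CPM in KO fetuses. Here too the groups did not overlap, with WT replicate 3 nearest to the KO libraries. For Gabra3 the log2 change was 0.40 (SE 0.0858, adjusted p 0.00206), and 0.14 (adjusted p 0.205) with the correction.

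Gabrb2, a beta subunit abundant in the adult brain, was at 51.6, 57.8 and 51.3 CPM in WT and at 62.2, 59.1 and 62.6 CPM in KO fetuses. The gap between the groups was narrow, since WT replicate 2 reached 57.8 and KO replicate 2 was at 59.1. Its log2 change was 0.23 (SE 0.0685, adjusted p 0.0124). It missed the threshold without WT replicate 1, at 0.19 (adjusted p 0.0577), and without WT replicate 3, at 0.19 (adjusted p 0.0576). With the correction it was 0.11 (adjusted p 0.173).

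Gabrd was barely detected in the fetal brain. Its counts were 14, 17 and 14 in WT and 10, 13 and 14 in KO libraries, or 0.655 to 0.849 CPM and 0.607 to 0.812 CPM. The groups overlapped, and the log2 difference was 0.00 (SE 0.335, adjusted p 0.999), with a 95% interval from -0.66 to 0.66. A change of up to about that size was not detectable at this depth.

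The importer Slc12a2 was at 99.3, 89.4 and 89.3 CPM in WT and at 75.8, 71.96 and 80.8 CPM in KO fetuses, and the groups did not overlap. Its log2 change was -0.24 (SE 0.0648, adjusted p 0.00765). The call was lost with the correction, at -0.06 (adjusted p 0.428), and under upper-quartile scaling, at -0.07 (adjusted p 0.368). That scaling moved the median of all genes from 0.03 to 0.20, and the share of the called genes that were higher from 48.1% to 60.8%.

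The exporter Slc12a5 gave the largest difference of the 7 before correction and the one that depended most on it. It was at 146.0, 160.7 and 171.1 CPM in WT and at 90.3, 95.4 and 76.6 CPM in KO fetuses, so that every KO library lay below every WT one. The log2 change was -0.83 (SE 0.0887, adjusted p 1.57e-05), or 1.77-fold lower. Of the 10 neuron markers 7 were lower and 2 higher before the correction, and 4 were lower and 1 higher with it. Their median log2 fold change was -0.54 before and -0.07 with the correction, and their part in this difference was not tested. With the correction the direction of the Slc12a5 difference turned, to 0.20 higher in KO (adjusted p 0.0589). In corrected CPM the WT libraries were at 107.9, 131.8 and 133.1 and the KO libraries at 140.2, 146.9 and 133.2, so that every KO library lay above every WT one, though the nearest pair, WT replicate 3 and KO replicate 3, were almost level. The GC content of the Slc12a5 transcripts was 58.3%, the highest of the 7, against a median of 49.6% over the genes tested. It was 38.4% in Gabra2, 43.1% in Gabra3, 44.0% in Gabrb2, 44.2% in Slc12a2, 47.1% in Gabra5 and 56.8% in Gabrd.

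**Figure D1:**
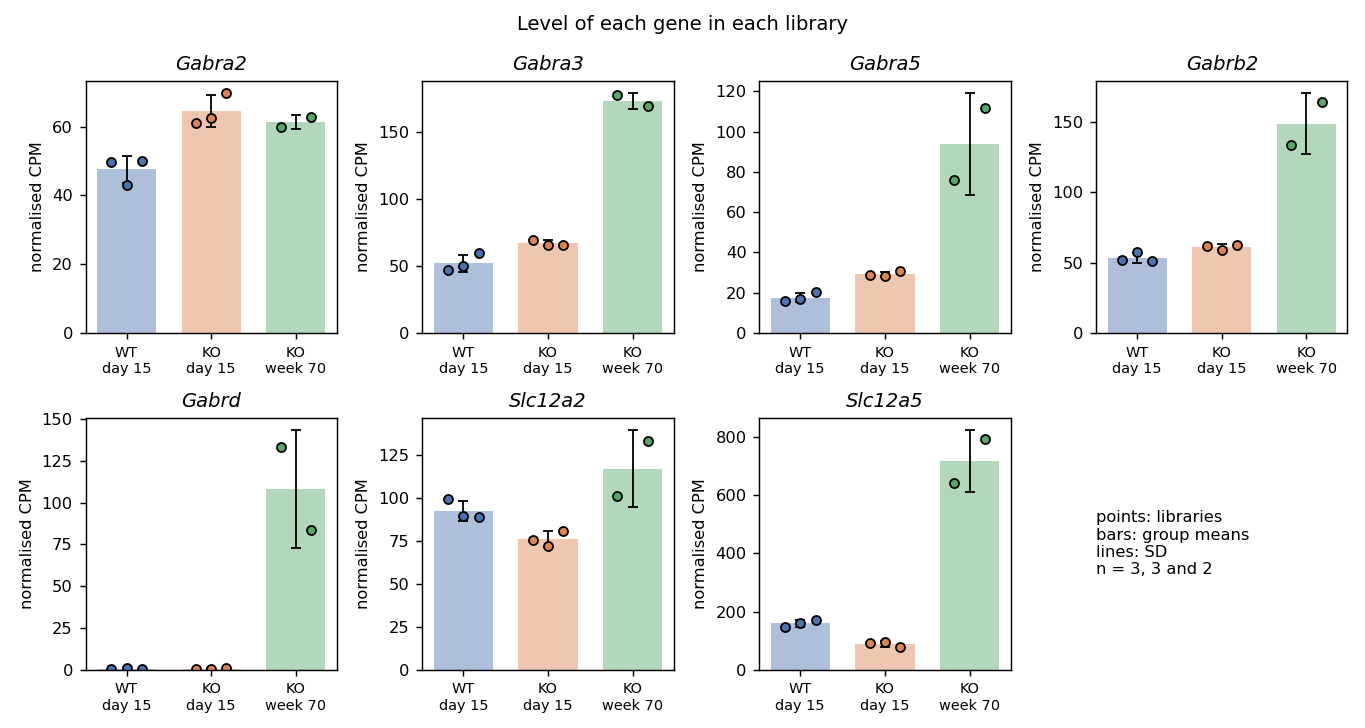
Normalised CPM (linear axis from 0) of each of the 7 genes in each library, with points for libraries, bars for group means and lines for the SD (n = 3 WT day 15, 3 KO day 15 and 2 KO week 70). Gabrd lay below 1 CPM in the 6 fetal libraries and at 83.3 and 133.2 CPM at week 70, whereas Gabra2 stayed between 43.0 and 69.8 CPM in all 8.

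With age, transcripts of 6 of the 7 genes were higher at week 70 than in the KO fetus, and 1, Gabra2, was not called. The test covered 20000 genes, of which 82% were called, 37.6% higher and 44.4% lower. The median log2 difference was 1.27 over the 7 genes and -0.19 over all genes. All 7 were called higher with the correction, where 78.7% of all genes were called, 39.7% higher and 39% lower. The libraries of 6 did not overlap between ages, as was so for 87.9% of the genes tested, 42.3% without overlap and higher.

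Gabrd showed the widest difference. Its 2019 and 1208 counts at week 70, or 133.2 and 83.3 CPM, stood against 10 to 14 counts in the KO fetuses. Its log2 change was 7.13 (SE 0.250, adjusted p 1.47e-09), and 6.66 with the correction. The gap between the 2 week 70 libraries was small beside their distance from the fetal ones. Gabrd is known for thalamic, dentate and cerebellar granule neurons. The 6 cerebellar granule cell markers summed to 63.8 CPM in week 70 replicate 1, the library with more Gabrd, to 161.8 CPM in replicate 2, and to 256.0 to 286.8 CPM in the KO fetuses. Most of that sum was Zic1 and Zic2, while Cbln3, at 3.69 and 1.79 CPM, and Fat2, at 1.25 and 0.414 CPM, were higher in replicate 1. Their part in the Gabrd level was not tested.

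Slc12a5 was at 643.9 and 794.6 CPM at week 70, against 76.6 to 95.4 CPM in the KO fetuses. Its log2 change was 2.94 (SE 0.122, adjusted p 4.90e-09), or 7.68-fold, and 1.84 with the correction, where the call held. The neuron markers rose over the same comparison in 8 of 10 genes and fell in 2, with a median log2 fold change of 2.61. Of all genes tested 37.6% were higher and 44.4% lower. With the correction 7 neuron markers rose and 2 fell, with a median of 2.13, against 39.7% and 39% of all genes. Slc12a5 thus lay above the median of these markers before the correction and below it after. The part of these markers in the Slc12a5 level was not tested.

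Slc12a2 was at 101.3 and 133.3 CPM at week 70, against 71.96 to 80.8 CPM in the KO fetuses. Its log2 change was 0.52 (SE 0.118, adjusted p 0.00193). It was 0.78 with the correction, 0.31 without week 70 replicate 2, the higher of the pair, and 0.27 under upper-quartile scaling. Slc12a2 is also abundant in choroid plexus epithelium, and the 7 choroid plexus markers summed to 73.6 CPM in week 70 replicate 1 and 2411 CPM in replicate 2. Most of that was Ttr, the transthyretin gene, at 60.0 and 2263 CPM, and in no group were any of the 7 markers at 0 in every library. The part of choroid plexus in the Slc12a2 level was not tested.

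Gabra5 was at 75.9 and 111.7 CPM at week 70, with a log2 fold change of 1.59 (SE 0.144, adjusted p 2.21e-06) over the KO fetuses. Gabra3 was at 177.6 and 169.4 CPM, with a log2 fold change of 1.27 (SE 0.0814, adjusted p 1.28e-07). Gabrb2 was at 133.6 and 164.3 CPM, with a log2 fold change of 1.18 (SE 0.101, adjusted p 1.35e-06). In these CPM all 3 were thus more than 2-fold higher in both week 70 libraries than the mean of the KO fetuses. With the correction their log2 fold changes were 1.83, 1.81 and 1.55. Under upper-quartile scaling they were 1.33, 1.02 and 0.93.

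Gabra3 lies on the X chromosome, and the libraries differed in transcripts that mark sex. Xist, the RNA of the inactive X, had 54531 to 93272 counts in the 6 fetal libraries, 7969 in week 70 replicate 1 and 4 in replicate 2. The 4 Y-linked genes Ddx3y, Eif2s3y, Kdm5d and Uty together had 2219 counts in week 70 replicate 2 and 0 to 4 in each of the other 7 libraries. The part of sex in the age differences was not tested.

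Gabra2 was at 59.9 and 62.9 CPM at week 70, within or beside the 61.2 to 69.8 CPM of the KO fetuses, and the groups overlapped. The log2 difference was -0.17 (SE 0.0944, adjusted p 0.118), with a 95% interval from -0.35 to 0.02. The result depended on the processing in both directions. It was -0.42 (adjusted p 0.00199) under upper-quartile scaling, which moved the median of all genes from -0.19 to -0.44, and 0.80 (adjusted p 4.11e-06) with the correction for length and GC content.

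Against the WT fetus, all 7 genes were called higher at week 70, where 78.6% of 19465 genes were called, 36.7% higher and 41.9% lower. With the correction all 7 were again called higher, where 76.9% of all genes were called, 39.1% higher and 37.8% lower. None of the 7 overlapped between these groups, against 86.4% of all genes without overlap and 40.1% without overlap and higher. This comparison shares its week 70 libraries with the one above, and its log2 fold changes are given beside those values and not as support for them. They were 7.18 for Gabrd, 2.40 for Gabra5, 2.16 for Slc12a5, 1.72 for Gabra3, 1.46 for Gabrb2, 0.35 for Gabra2 and 0.32 for Slc12a2. Those of Gabra2 (adjusted p 0.00842) and Slc12a2 (adjusted p 0.0358) were the smallest, and both depended on the setting. With the correction they were larger, at 0.91 (adjusted p 3.78e-05) for Gabra2 and 0.71 (adjusted p 2.01e-04) for Slc12a2. Under upper-quartile scaling Gabra2 was at 0.23 (adjusted p 0.0508). Slc12a2 was at 0.11 without week 70 replicate 2, which left 1 library at week 70. Replicate 2 had both the high Ttr level and the Y-linked counts, and the part of either was not tested.

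**Figure D2:**
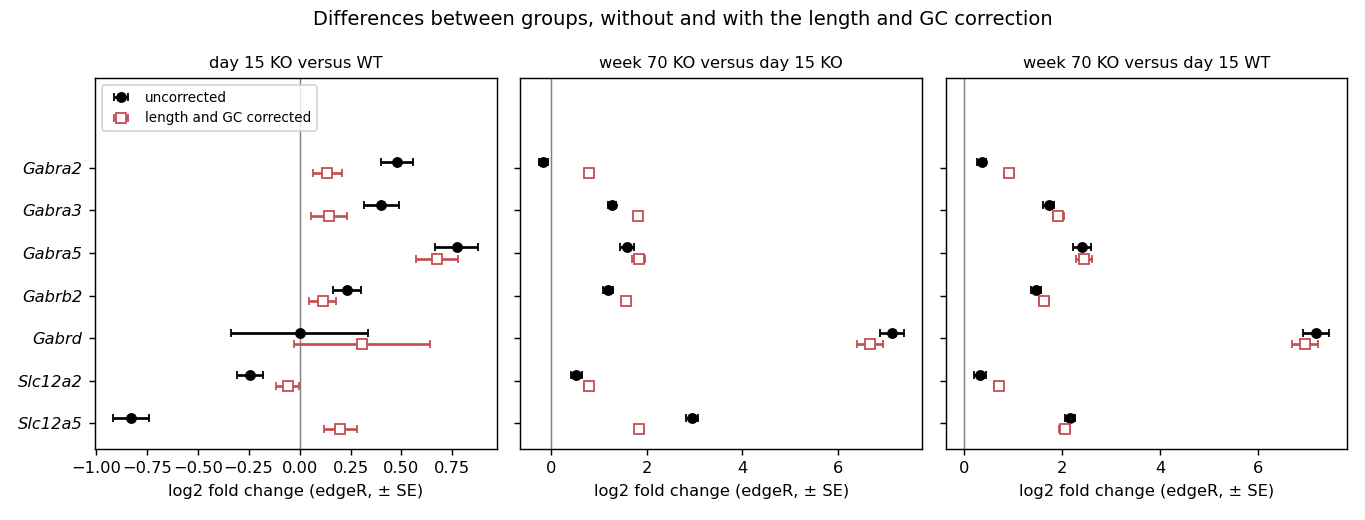
Log2 fold changes (± SE, edgeR) of the 7 genes in the 3 comparisons, from the uncorrected counts (filled circles) and with the trend on length and GC content taken out (open squares). At day 15 Slc12a5 moves from -0.83 to 0.20 and Gabra5 stays at 0.77 and 0.67, while with age Gabra2 moves from -0.17 to 0.80.

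Levels of different genes were compared per kilobase of annotated exon. The order of the genes rests on this length, which was 2875 bases for Gabrd, against 1921 in its longest transcript. For Slc12a2 the 2 lengths were 10920 and 6520 bases. An order by longest transcript is not given and can differ. In WT fetuses Slc12a5 was highest, at 21.4 ± 1.69 CPM per kb (SD, n = 3), followed by Gabra3 at 13.3 ± 1.66. Slc12a2 at 8.49 ± 0.524 and Gabrb2 at 8.42 ± 0.579 did not differ beyond their spread, nor did Gabra2 at 6.23 ± 0.522 and Gabra5 at 5.90 ± 0.781, and Gabrd was lowest at 0.256 ± 0.0352. In KO fetuses Gabra3 came first at 17.1 ± 0.606 CPM per kb and Slc12a5 second at 11.7 ± 1.31. The next were Gabra5 at 9.80 ± 0.414 and Gabrb2 at 9.64 ± 0.307, which did not differ beyond their spread. They were followed by Gabra2 at 8.44 ± 0.608, Slc12a2 at 6.98 ± 0.406 and Gabrd at 0.248 ± 0.0359. The first places turned with the correction, which put Slc12a5 at 18.8 ± 0.922 and Gabra3 at 14.8 ± 0.888 CPM per kb in KO fetuses. In WT fetuses the corrected values were 16.7 ± 1.90 for Slc12a5 and 13.6 ± 1.84 for Gabra3. At week 70 Slc12a5 was again highest at 96.6 ± 14.3 CPM per kb (SD, n = 2) and Gabra3 second at 44.2 ± 1.48. Gabrd at 37.7 ± 12.3, Gabra5 at 31.5 ± 8.51 and Gabrb2 at 23.4 ± 3.42 overlapped with their neighbours within their spread. Slc12a2 at 10.7 ± 2.07 and Gabra2 at 8.04 ± 0.279 closed the order.

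The chloride switch was described by the ratio of Slc12a5 to Slc12a2 per kilobase of annotated exon, which does not depend on library scaling. It is a ratio of tissue RNA and not a measure within neurons, since Slc12a2 is also abundant in choroid plexus epithelium. The cell types differed as well. The 10 oligodendrocyte lineage markers summed to 104.9 to 119.6 CPM in KO fetuses and 13530 to 13650 CPM at week 70. The part of cell composition in the ratio was not tested. The ratio was 2.16, 2.64 and 2.81 in the WT fetuses, 1.75, 1.95 and 1.39 in the KO fetuses, and 9.32 and 8.74 at week 70. By this length the exporter's level exceeded the importer's in all 8 libraries, and the week 70 libraries stood well above the fetal ones. The size of the ratio depended on the gene length used. With the longest transcript as length it was 1.59, 1.94 and 2.07 in the WT fetuses and 1.29, 1.44 and 1.03 in the KO fetuses. KO replicate 3 was then almost level between the 2 genes, and the week 70 libraries were at 6.87 and 6.45. On the log2 scale the means were 1.33 ± 0.199 in WT fetuses (SD, n = 3), 0.75 ± 0.248 in KO fetuses (n = 3) and 3.17 ± 0.065 at week 70 (n = 2). The KO fetuses were lower than WT by more than the spread in either group. No p is given for this score, which was chosen with the genes.

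The ratio between the fetal groups changed its order with the correction. Corrected ratios were 1.86, 2.41 and 2.44 in WT fetuses and 2.57, 2.92 and 2.43 in KO fetuses, so that the groups overlapped. They were 5.69 and 5.41 at week 70. The log2 difference between KO and WT fetuses was -0.59 before and 0.25 after the correction, and that between week 70 and the KO fetuses was 2.43 before and 1.08 after.

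**Figure D3:**
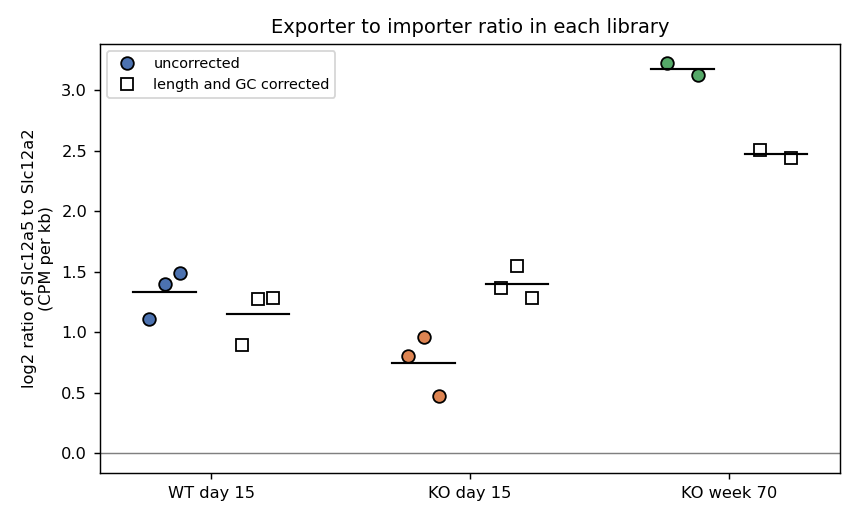
Log2 ratio of Slc12a5 to Slc12a2 (CPM per kb) in each library, uncorrected (filled circles) and corrected for length and GC content (open squares), with lines at group means. Both week 70 libraries lie above the 6 fetal libraries on either scale, while the order of WT and KO fetuses differs between the scales.

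A list of 11 other GABA-A subunit genes gave the setting for the 5 described. Over all genes tested, 30.1% were higher and 32.5% lower at day 15, and 37.6% were higher and 44.4% lower with age. At day 15, 6 of the 11 were tested, of which 3 were higher in KO, 1 was lower and 2 were not called, with a median log2 difference of 0.39. Those called higher were Gabrg1 at 1.38, Gabrb1 at 0.60 and Gabra4 at 0.58, and Gabrq was lower at -0.54. Gabrg3 at 0.20 and Gabre at -0.58 did not pass. With the correction 2 were higher (Gabrg1 at 0.82 and Gabrb1 at 0.46) and Gabrq stayed lower, at -0.44. The genes of the chr5 cluster, Gabrg1, Gabra2, Gabra4 and Gabrb1, were all called higher before the correction, and their GC content was 35.3% to 42.2%. Gabra4 and Gabrb1 share 46 bases of exon on opposite strands, and the use of strand in counting is not given in the sources used here.

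With age, 8 of the 11 were tested, of which 5 rose, 2 fell and 1 was not called, the same counts as with the correction. Gabra4, an alpha subunit often found with the delta subunit, was at 17.9, 15.4 and 20.4 CPM in KO fetuses and at 179.8 and 146.2 CPM at week 70. It rose by 3.09 on the log2 scale (SE 0.130, adjusted p 5.25e-09), or by 3.68 with the correction, less than Gabrd and more than Gabra3 and Gabra5. Gabrr2 rose by 2.11, Gabrg3 by 1.27, Gabrb1 by 1.17 and Gabrg1 by 0.93 on the log2 scale. The rise of Gabrr2 rested on few reads, 5 to 8 counts in KO fetuses and 15 and 41 at week 70. Gabrr1, at 1.54, was not called (adjusted p 0.249). Gabrq and Gabre, the neighbours of Gabra3 on the X chromosome, fell by 2.48 and by 1.83 on the log2 scale, so that the 3 genes of that cluster did not move one way. Gabra6, the cerebellar granule cell subunit, reached no more than 11 counts and stayed untested in all 3 comparisons. The other 2 untested with age, Gabrp and Gabrr3, had at most 5 and 3 counts.

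**Figure D4:**
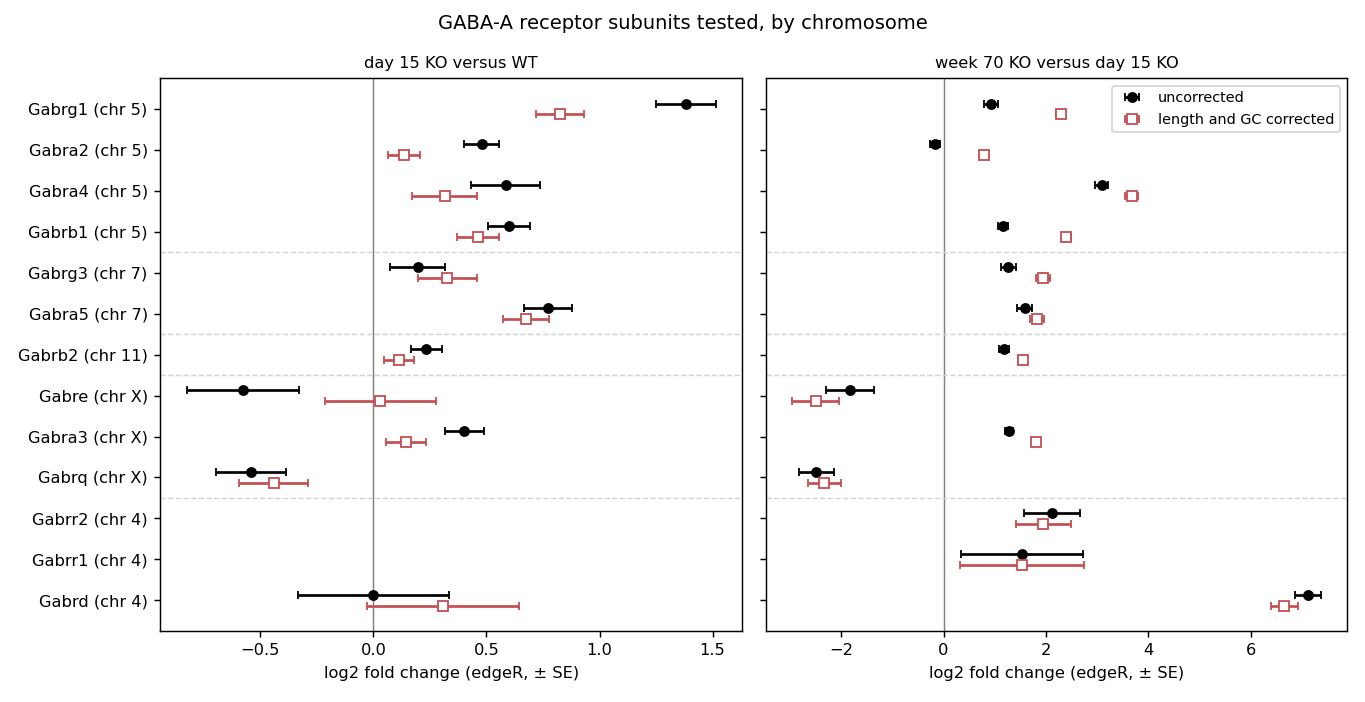
Log2 fold changes (± SE, edgeR) of the GABA-A subunit genes described, by chromosome, for KO against WT at day 15 (left) and week 70 against day 15 in KO (right), uncorrected (filled circles) and corrected for length and GC content (open squares). At day 15 Gabrg1 lies farthest right at 1.38, and with age Gabrd lies farthest right at 7.13 while Gabre and Gabrq lie left of 0.

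Other genes of the inhibitory pathway followed lists compiled by function. Their counts at day 15 are to be read against 32.5% of all genes lower and 30.1% higher. With the correction these shares were 24.5% and 25.8%. At day 15 the 9 genes of GABA synthesis, packing, uptake and breakdown had 6 lower, none higher and 3 not called. With the correction 4 were lower and 2 higher. The lowest was Slc32a1, the vesicular GABA transporter, at 15.1 CPM in KO against 52.0 in WT, a log2 fold change of -1.74 (SE 0.158, adjusted p 4.27e-06) and -1.02 with the correction. Of the 15 genes of the inhibitory postsynapse, 10 were lower and 2 higher. Insyn1, a gephyrin-binding protein, was lowest at -1.27 (corrected -0.64), and Gabarap, which carries GABA-A receptors through the cell, highest at 0.60 (corrected 0.39). With the correction 5 were lower and 4 higher, and the highest was Shisa7 at 0.79. Of 8 tested interneuron markers, 3 were lower and 1 was higher at day 15, against 32.5% and 30.1% of all genes. With the correction 2 were lower and 1 was higher. Their summed level was 405.4 to 474.9 CPM in WT and 340.8 to 348.2 in KO fetuses. Dlx2 had means of 79.9 CPM in WT and 23.3 in KO, while Sst had means of 45.2 and 46.1 CPM. The part of these markers in the differences above was not tested.

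The kinases and partners of the cotransporters had 5 of 9 genes lower and 2 higher at day 15. The counts of this and the next lists stand against the same 32.5% lower and 30.1% higher of all genes. Wnk2, a kinase upstream of both transporters, was lowest at -1.15, and Neto2, an auxiliary protein that binds KCC2, highest at 0.82 (corrected 0.39). With the correction none was lower and 4 were higher, and Wnk2 was at 0.13 (adjusted p 0.241). Of the other Slc12 cotransporters, 5 of 7 were tested and 3 were lower, led by Slc12a7, another potassium-chloride exporter, at -1.45. With the correction 1 was lower, Slc12a7 at -0.68, and 2 were higher. Of the 6 genes of the GABA-B receptor, the metabotropic receptor for GABA, 3 were lower, led by Gabbr2 at -1.41. With the correction 2 were lower. Gabbr2 was then at -0.51, and Kctd12 was lowest at -0.94. Of the 5 glycine receptor genes, which form a related chloride channel, 3 were higher, led by Glra3 at 1.10, and 1 was higher with the correction, Glra3 at 0.72.

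With age, 37.6% of all genes were called higher and 44.4% lower, or 39.7% and 39% with the correction. The counts below stand against these shares. Of the 9 genes of GABA synthesis, packing, uptake and breakdown 8 rose and none fell, and 7 rose with the correction. Slc6a11, the astrocytic GABA transporter, led at 4.60 (corrected 3.93). The 7 astrocyte markers all rose as well, from 213.1 to 218.2 CPM summed in KO fetuses to 6690 to 7176 at week 70, and their part in this rise was not tested. In the inhibitory postsynapse 11 of 15 rose and 3 fell, from Nsf, a vesicle fusion ATPase, at 3.999 to Mdga1, which binds neuroligins, at -1.93, and with the correction 9 rose and 5 fell. For the GABA-B receptor 5 of 6 rose with and without the correction, led by Gabbr2 at 4.10 (corrected 3.17), and Kctd12b was lower at -0.79, but 0.13 (adjusted p 0.544) with the correction. The glycine receptor genes split, with Glrb, the beta subunit, at 3.42 and Glra2, the fetal alpha subunit, at -2.16 among 2 higher and 2 lower, as many as with the correction (Glra2 then at -1.31). Of the kinases and partners 6 rose and 2 fell, between Stk39 (SPAK), which phosphorylates both cotransporters, at 1.71 and Neto2 at -1.93. With the correction 5 rose and 4 fell, and Neto2 was at -0.72. Of the other Slc12 genes 2 rose, led by Slc12a8 at 1.79, and 2 fell, or 3 with the correction. Slc12a1, the kidney importer, was lowest with 3 counts or fewer in each week 70 library. Set against 3 counts per library, it was at least 2.45-fold lower than in the KO fetuses.

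The genes with the most similar profiles over the 8 libraries were found by Euclidean distance between centred log2(CPM + 0.5) values among 14267 genes. They were Rbbp9 and Evi5 for Gabra2 (distances 0.146 and 0.156), Neto1 and Emc4 for Gabra3 (0.155 and 0.260) and Klhl4 and Adamtsl4 for Gabra5 (0.299 and 0.334). For Gabrb2 they were Pura and the sodium channel gene Scn2a (0.208 and 0.221), and for Gabrd Fgf1 and Zfp365 (0.519 and 0.673). Slc12a2 was nearest to Tbl1xr1 and Zdhhc5 (0.134 and 0.162), and Slc12a5 to Pfkm, the muscle-type phosphofructokinase, and Pnkd (0.206 and 0.215). Pfkm had log2 fold changes of -0.80 at day 15 and 2.98 with age, close to those of Slc12a5. These profiles share the 8 libraries and their depth, and the likeness is a description.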

How the data were processed

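Polyadenylated RNA from 8 brain samples was sequenced. The authors deposited raw read counts per Ensembl gene, per the file headers; the submitters' processing notes name HISAT2, featureCounts and edgeR, and builds GRCm38 and GRCm39. The annotation, strand setting and treatment of reads matching several genes are not given in the sources used here. Total counts limit the precision of low genes, and 3 counts correspond to 0.14 to 0.207 CPM.

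Genes were tested with edgeR 4.0.16 (filterByExpr, TMM, two-sided quasi-likelihood F-test, Benjamini-Hochberg adjustment over all genes tested, threshold 0.05), using only the 2 groups compared, and the scripts were tested on simulated data. Genes were matched to GENCODE M21 for length and GC content (97.28% of identifiers). The corrected fit smoothed each library's deviation on both with mgcv 1.9.3 and entered it as an offset. Alternatives were DESeq2 1.42.0, upper-quartile or RLE scaling, all genes kept, a minimum mean of 10 counts, all 8 libraries in one fit, a replicate block and each library left out. Corrected ratios were added after seeing the data.

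The 7 genes and the lists were chosen with earlier results of these data known. Named genes were every member, the other listed GABA-A subunits tested, the largest called rise and fall of each other pathway list, the 2 most similar genes for each member, and defining cell markers. Ddx3y, Eif2s3y, Kdm5d, Uty and Xist were named after their values were seen. Subunit shares and some genes are not reported here. No 2 libraries of a group agreed within sampling noise.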

Additional observations from a re-analysis of the deposited data

How the results depend on the processing

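Of 105 alternative values for the 7 genes at day 15, 84 kept their direction and side of the threshold, 13 lost the call and 8 reversed. Of 98 with age, 95 kept both, and of 98 for week 70 KO against day 15 WT, 91 did. Gabrd at day 15, never called, was 0.171 under upper-quartile scaling, 0.01 with a filter at a mean of 10 counts, 0.3074 with the length and GC offset and 0.3004 with that offset and the replicate block. Leaving out single libraries moved it from -0.101 to 0.1078. Slc12a5 at day 15 reversed to 0.2005 with the offset and 0.2047 with offset and block, and Gabra2 with age to 0.796 and 0.791. Gabrb2 at day 15 also lost its call with no filter (0.14) and with all 8 libraries in one fit (0.19). Slc12a2 against day 15 WT lost it with no filter (0.29), under upper-quartile scaling (0.20) and without WT replicate 2 or 3 (both 0.32). With the offset, the log2 ratio of Slc12a5 to Slc12a2 was 0.2477 between KO and WT fetuses, 1.075 between week 70 and KO fetuses and 1.322 between week 70 and WT fetuses. The cause was not tested.

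Replicate numbers were not used as pairs in the main fits, since the labels tie a number to no litter or day. In deviations from group means, same-numbered WT and KO fetuses correlated at -0.144, -0.169 and -0.146, and the other pairs at 0.061 to 0.086. Deviations sum to 0 within each group, so these values are bound to each other and cannot decide whether numbers pair libraries. The replicate block called 11184 genes at day 15, 14876 with age and 13244 for week 70 KO against day 15 WT. Among the 7 genes it ended 1 call, Slc12a2 in the last comparison (0.29, adjusted p 0.112). Where leaving out 1 library left 1 at week 70, that library was assumed to vary like the other group. Depth limited Gabrd in the fetus to 10 to 17 counts.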
